A study of Mus musculus with 10 samples.

Results

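Polycomb group genes encode the subunits of protein complexes that keep developmental genes silent. The 37 genes described here were given as a list of subunits of Polycomb repressive complexes 2 and 1 (PRC2 and PRC1) and of the deubiquitinase complex PR-DUB. They were found by gene symbol in the deposited transcript names, out of 45706 genes in all. Each member matched 1 gene identifier, and all 37 passed the filter on low counts, which left 20165 genes to test.

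PRC2 places a repressive methyl mark on histone H3, and PRC1 attaches ubiquitin to histone H2A through the ligases Ring1 and Rnf2. Canonical PRC1 reads the PRC2 mark through a CBX subunit and carries a PHC subunit, whereas variant PRC1 carries Rybp or Yaf2 in place of CBX. PR-DUB, built from Bap1 and an ASXL protein, removes the ubiquitin. In embryonic stem cells these complexes occupy many promoters of lineage genes, and their subunits come as paralogs that can replace each other.

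RNA was profiled at 5 stages with 2 libraries each, called biological replicates in the series text. The uninduced group was mouse embryonic fibroblasts (MEF) with a doxycycline-inducible OKSM cassette (Oct4, Klf4, Sox2 and Myc) at Col1a1 and the activator M2rtTA at Rosa26, grown in MEF medium without doxycycline. Day 3, day 6 and day 9 cells had the same genotype and were kept in ESC medium with 1 µg/ml doxycycline and 50 µg/ml ascorbic acid. Day 3 was the whole culture, and day 6 and day 9 were sorted for SSEA1, a surface marker of cells moving toward pluripotency. The embryonic stem cells (ESC) were the single line V6.5, without the cassette, cultured on irradiated feeder cells. All groups share the strain background C57BL/6 x 129. Medium, ascorbic acid and induction changed together between MEF and day 3, and sorting began between day 3 and day 6, so these factors cannot be told apart from time.

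Libraries held 29585876 to 38275024 estimated reads. The summed level of 12 fibroblast marker genes was 33814 to 34072 in MEF, in reads scaled to library size (CPM),, 62.7 to 68.2 at day 9 and 2860 to 3033 in ESC, where it stood at 8.68% of the MEF mean. The 10 pluripotency markers summed to 2.07 to 2.56 CPM in MEF, 454 to 459 at day 9 and 4315 to 4404 in ESC. Xist, the RNA of the inactive X chromosome, was below 1 CPM in MEF, at 930 to 1317 CPM from day 3 to day 9, and at 9 to 11.3 CPM in ESC. The Y-linked Ddx3y was at 86.4 to 90.6 CPM in MEF, at most 0.176 from day 3 to day 9, and 26.1 to 26.8 in ESC. The MEF libraries thus differ from the induced ones in sex-linked RNA, so for all 37 genes the source of the cells and induction cannot be told apart in comparisons with MEF. In bulk RNA a change in the share of cells that express a gene and a change in RNA per cell cannot be told apart.

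A gene was called higher or lower when the edgeR quasi-likelihood test gave a Benjamini-Hochberg adjusted p under 0.05 over all tested genes and the log2 fold change was at least 1 in size. Between ESC and MEF, 12 members were called higher and 7 lower, 51.4% of the 37 beside 46.1% of all tested genes (25.5% higher and 20.6% lower). With no fold change minimum the members counted 22 higher and 13 lower, beside 76.6% of all genes (40.4% and 36.2%). The median log2 fold change was 0.34 for the members and 0.1 for all genes. Library-size scaling without TMM, which moved the median of all genes to 0.438, gave 16 higher and 4 lower members, and limma on log2(TPM + 1) gave 2 lower. Cbx7 had the highest log2 fold change among the members, 6.15 (SE 0.07), followed by Phc1 at 3.95, Jarid2 at 3.79, Mtf2 at 3.76 and L3mbtl2 at 3.09. At the other end stood Phc2 at -1.69, Bmi1 at -1.62, Cbx8 at -1.49 and Cbx6 at -1.48.

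**Figure D1:**
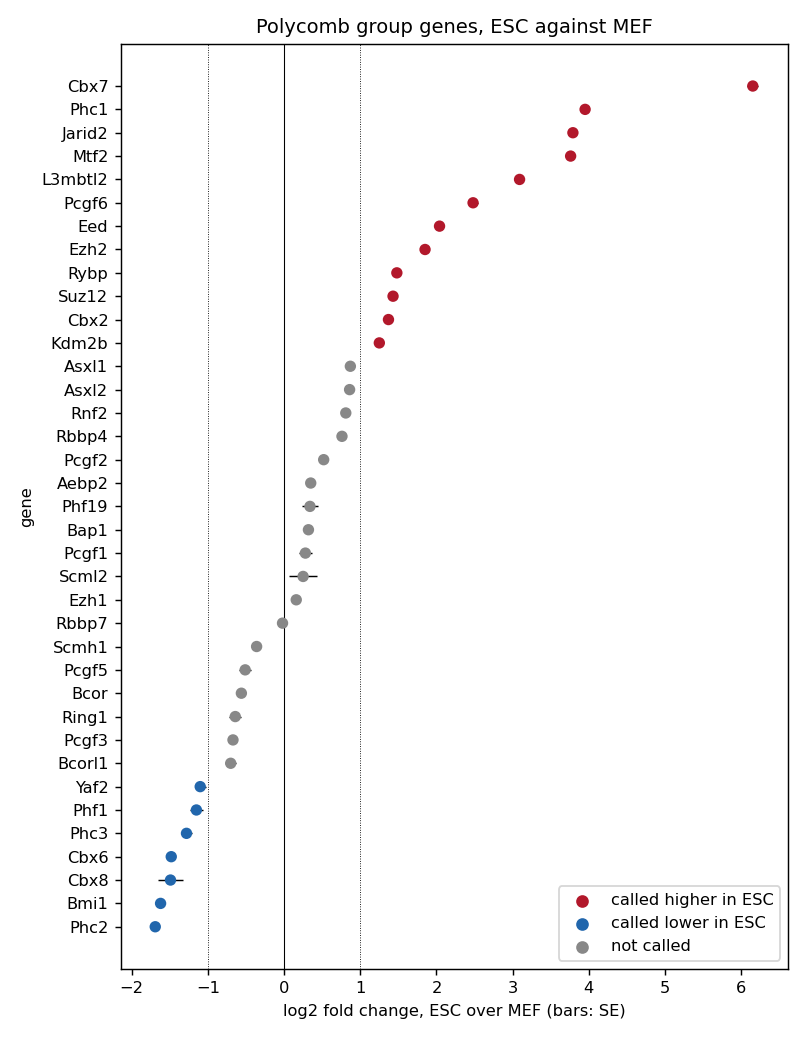
Log2 fold change of each Polycomb group gene in ESC over MEF (x axis), with bars for the standard error, which for most genes are shorter than the point; dotted lines mark a log2 fold change of 1 in either direction. The 12 genes called higher run from Kdm2b at 1.25 to Cbx7 at 6.15, and the 7 called lower run from Yaf2 at -1.1 to Phc2 at -1.69.

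Step by step, 7 members were called higher and 0 lower at day 3 against MEF, 18.9% of the members beside 29.1% of all tested genes (14.6% higher and 14.5% lower). Library-size scaling gave 12 higher at day 3. Over the next step, to day 6, 3 were called higher and 0 lower, or 1 lower (Phf1) without day 6 replicate 2 (8.11% beside 19.5% of all genes, 9.26% higher and 10.2% lower), and library-size scaling gave 6 higher. At an adjusted p under 0.05 alone, 19 were higher and 13 lower in that step, beside 56.5% of all genes (29.2% and 27.3%). From day 6 to day 9 the count was 0 in either direction (beside 7.87% of all tested genes, 5.18% higher and 2.68% lower), also with DESeq2 and limma. With no fold change minimum, 8 members were higher and 16 lower there, beside 34.6% of all genes (15.7% and 18.9%). ESC differed from day 9 in 5 higher and 6 lower members (29.7% beside 32.9% of all genes, 18.6% higher and 14.3% lower), and in 14 higher and 15 lower with no fold change minimum, beside 69.6% (36.1% and 33.5%). For ESC against day 9, 8 were higher and 3 lower with limma on log2(TPM + 1). Successive comparisons share the libraries of the stage between them. Without the fold change minimum, 30 members were higher and 4 lower at day 3, 34 of 37, where 64.9% of all genes passed (35.4% higher and 29.5% lower). Most members at day 3 therefore passed the test with a change of less than 2-fold.

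At day 9 against MEF, 11 members were called higher and 2 lower (35.1% beside 43.9% of all tested genes, 24.1% higher and 19.8% lower). With no fold change minimum the counts were 24 and 6, beside 74.9% (41.7% and 33.1%). In CPM, 7 members ascended from MEF through day 3, day 6 and day 9 to ESC with no overlap between the libraries of neighbouring stages. These were Eed, Mtf2, Jarid2, Pcgf6, Cbx7, Phc1 and L3mbtl2. The same order held for 3.27% of all tested genes. The reverse order held for 0 members and 2.41% of all genes. In TPM, the day 6 and day 9 libraries overlapped for Mtf2, Jarid2 and Cbx7, and Eed had 17.3 in 1 library of each day. For Cbx7 the log2 fold change from day 6 to day 9 was 0.07 (adjusted p 0.25 in edgeR). By mean CPM, 14 members were highest in ESC, 11 at day 3, 8 at day 6, 3 in MEF and 1 at day 9. The same count was not made over all genes. The 1 at day 9 was Ezh2, with an adjusted p in edgeR of 0.08 against day 6 and 0.056 against ESC. For Ring1, Asxl1 and Asxl2, libraries of the highest stage overlapped those of the next.

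**Figure D2:**
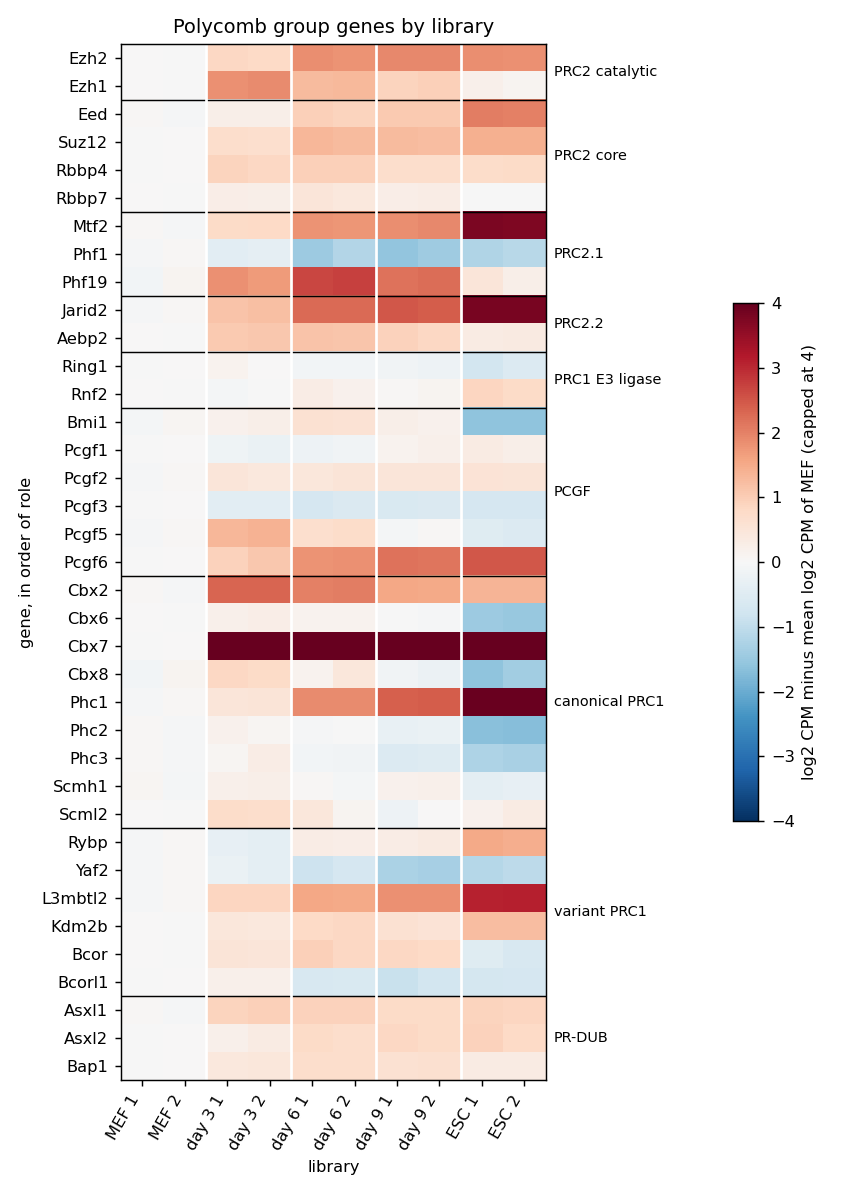
Log2 CPM of the 37 genes (rows, grouped by role) in each of the 10 libraries (columns), relative to the mean log2 CPM of the MEF libraries; red is higher, blue is lower, and the colour scale ends at 4. Cbx7 is past the end of the scale from day 3 on, Phc1, Jarid2 and Mtf2 are darkest in ESC, and Bmi1, Cbx6, Cbx8, Phc2 and Phc3 are blue in ESC.

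Short stretches of promoter are shown for members in which a motif of a growth-related factor lies upstream of the start. RefSeq (GRCm38.p6) gave windows from 250 bases before to 50 after the start for 33 members, 46 windows in all; Pcgf1, Cbx2, Rybp and Yaf2 had none. The E2F motif was searched as TTTCCCGC, TTTCGCGC, TTTGCCGC or TTTGGCGC on both strands. It lay in a window of Ezh2, Suz12 and Phf19, 6.52% of the member windows beside 2.26% of the 32851 windows of all genes. In Ezh2 the match begins after the start and is not printed. The motif is in capitals, 5′ to 3′ on the strand of the gene.
Suz12, chr11:79992857-79992924, plus strand: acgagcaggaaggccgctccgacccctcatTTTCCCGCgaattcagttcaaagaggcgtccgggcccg
Phf19, chr2:34914147-34914214, minus strand: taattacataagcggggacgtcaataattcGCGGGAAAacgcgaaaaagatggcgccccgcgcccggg

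The E-box CACGTG, the site class of Myc and its relatives, was searched in the same windows, where it reads the same on both strands. Among member windows only that of Rbbp4 also held another of the motifs, at a separate position. The E-box was present for 10 of the 33 members, beside 8.09% of the 27025 genes with a window. By window, it was in 21.7% of the member windows beside 7.15% of all windows. Of the 7 members called lower in ESC than in MEF, 6 had a window and 5 of them held an E-box: Bmi1, Cbx6, Cbx8, Phc2 and Phc3. Of the 12 called higher, 10 had a window and 0 held one. Of the 18 not called, 17 had a window and 5 held one. The matching shares among all genes called higher, lower or neither were not computed, so these counts have no baseline. Myc, itself a factor of the cassette, was at 117 and 118 CPM in MEF, 278 and 294 at day 9 and 18.4 and 19 in ESC. Its part in these levels was not tested. Phc2 also had windows at other starts without an E-box. The capitals mark the E-box in 4 of the 5 genes called lower. Those of the members not called (Rbbp4, Pcgf2, Bcorl1, Asxl2 and Bap1) are not printed.
Bmi1, chr2:18676773-18676838, plus strand: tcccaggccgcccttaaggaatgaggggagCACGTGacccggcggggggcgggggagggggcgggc
Cbx8, chr11:119040976-119041041, minus strand: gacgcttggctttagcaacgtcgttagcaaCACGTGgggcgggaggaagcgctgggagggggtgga
Phc2, chr4:128654615-128654680, plus strand: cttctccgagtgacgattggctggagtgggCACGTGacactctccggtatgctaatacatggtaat
Phc3, chr3:30969462-30969527, minus strand: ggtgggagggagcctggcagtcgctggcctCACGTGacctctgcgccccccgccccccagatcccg

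A KLF motif, CCNCACCC, was present in 13% of the member windows beside 16.6% of all, in Rbbp4, Rbbp7, Aebp2, Rnf2, Pcgf3 and Pcgf5. The octamer ATGCAAAT was present in 2.17% beside 1.74%, in Phc2 alone. A match is a description of these letters and shows no binding.

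The PRC2 methyltransferases Ezh2 and Ezh1 followed different courses. Ezh2 (chromosome 6, 47530139 to 47595341, GRCm38) stood at 39 and 37.9 CPM in MEF, 68 and 66.4 at day 3, 141 and 135 at day 6, 147 and 146 at day 9, and 140 and 137 in ESC. The level reached at day 6 was close to that of ESC, and the day 6 and ESC libraries overlapped. Its log2 fold change was 0.81 at day 3, under the minimum, and 1.04 (adjusted p 1.1e-11 in edgeR, SE 0.04) from day 3 to day 6. Ezh1 (chromosome 11, 101191115 to 101226463) was at 25.5 and 25.4 CPM in MEF and rose to 90.1 and 93.7 at day 3. Day 6 libraries held 61 and 62.2, day 9 libraries 47.3 and 48.8, and ESC libraries 29.4 and 27.6 CPM. The rise at day 3 had a log2 fold change of 1.85 (adjusted p 1.8e-13 in edgeR, SE 0.05), and each later stage was lower than the one before with no overlap of libraries.

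On the length-scaled TPM, Ezh2 exceeded Ezh1 at each stage. The log2 ratio of Ezh2 to Ezh1 TPM was 1.46 ± 0.24 (SD, n = 2) in MEF, 0.55 ± 0.31 at day 3 and 2.07 ± 0.1 at day 6. It reached 2.37 ± 0.08 at day 9 and 3.1 ± 0.17 in ESC. Ezh1 made up 40.5% of the EZH TPM at day 3 and 10.3% in ESC. Ratios are given with their spread and no test, since an exact permutation test (two-sided) of 2 values against 2 reaches 0.33 at the smallest.

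Of the other core subunits, Eed and Suz12 were called higher in ESC than in MEF. Eed, which binds the methyl mark, was at 33.3 and 31 CPM in MEF, 38.2 and 38 at day 3, 62.1 and 59 at day 6, 67.1 and 66.8 at day 9, and 133 and 131 in ESC. Its log2 fold change in ESC over MEF was 2.04 (adjusted p 1.8e-14 in edgeR, SE 0.04). At day 9 over MEF, Eed was called at 1.06, and DESeq2 gave 0.92. Suz12, a scaffold of the complex, stood at 72.8 and 73.7 CPM in MEF, 118 and 117 at day 3, 182 and 178 at day 6, 175 and 172 at day 9, and 197 and 197 in ESC. It passed the fold change minimum in no single step and reached 1.43 (adjusted p 2.7e-14 in edgeR, SE 0.03) in ESC over MEF. The histone-binding subunits Rbbp4 and Rbbp7, which other chromatin complexes also contain, were not called in any comparison. Rbbp4 ranged from 240 CPM in MEF to 472 at day 6, and its log2 fold change in ESC over MEF was 0.76. X-linked Rbbp7 ranged from 246 CPM in ESC to 348 at day 6, with -0.02 (adjusted p 0.67 in edgeR) in ESC over MEF.

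Proliferation genes moved over the same stages. The summed level of 12 of them was 1363 to 1385 CPM in MEF, 2868 to 2894 at day 3, 3470 to 3586 at day 6, 3461 to 3485 at day 9 and 3948 to 4005 in ESC. Against MEF, 6 of them were called higher at day 3, 10 at day 9 and 9 in ESC, that is 50%, 83.3% and 75% of the list beside 14.6%, 24.1% and 25.5% of all genes called higher. None passed the fold change minimum in the 3 later steps (day 6 over day 3, day 9 over day 6, ESC over day 9). At an adjusted p under 0.05 alone in edgeR, 10, 2 and 7 were higher in these steps and 0, 2 and 3 lower. Of all genes, 29.2%, 15.7% and 36.1% were higher and 27.3%, 18.9% and 33.5% lower. Their part in the levels of Ezh2, Eed and Suz12 was not tested.

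The Polycomb-like subunits, which recruit PRC2 to unmethylated DNA and define the form PRC2.1, changed in 3 different ways. Mtf2 (chromosome 5, 108065674 to 108109004) was at 22.4 and 21.2 CPM in MEF, 37.4 and 37.5 at day 3, 75.5 and 73.9 at day 6, 79.1 and 81.9 at day 9, and 299 and 293 in ESC. The last step was the largest, with a log2 fold change of 1.88 (adjusted p 6.9e-15 in edgeR, SE 0.04) in ESC over day 9. Phf19 (chromosome 2, 34893757 to 34914026) was at 6.91 and 7.96 CPM in MEF, 26.4 and 24.3 at day 3, 47.7 and 49.1 at day 6, 33.6 and 34.9 at day 9, and 10.3 and 8.76 in ESC. It rose by 1.76 (adjusted p 2.3e-10 in edgeR, SE 0.09) at day 3 and fell by 1.85 (adjusted p 4.2e-11 in edgeR, SE 0.08) from day 9 to ESC on the log2 scale. Phf1 was at 25.3 and 26.8 CPM in MEF, 19.5 and 20.4 at day 3, 9.61 and 11.5 at day 6, 8.81 and 9.75 at day 9, and 11.3 and 12.1 in ESC. Its log2 fold change was -1.49 (adjusted p 1.1e-09 in edgeR, SE 0.09) at day 9 and -1.15 in ESC against MEF, and the ESC value was -0.81 under library-size scaling. Phf1 overlaps Cuta on the opposite strand, and Mtf2 overlaps Tmed5 there, with mean levels of 38.7 CPM for Cuta and 42.3 for Tmed5.

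The make-up of the Polycomb-like family changed accordingly. In MEF, Mtf2 held 41.3% ± 2.96 (SD, n = 2) of the summed TPM of the 3 genes, Phf1 38.6% ± 1.22 and Phf19 20.2% ± 1.74. At day 6 the shares were 51.6%, 6.96% and 41.4% in that order. In ESC, Mtf2 held 91.8% ± 0.871, Phf19 4.57% ± 1.08 and Phf1 3.61% ± 0.21.

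Jarid2 and Aebp2 define the form PRC2.2. Jarid2 (chromosome 13, 44729474 to 44921643) was at 23.2 and 24.5 CPM in MEF, 52.7 and 55.1 at day 3, 114 and 115 at day 6, 133 and 128 at day 9, and 330 and 329 in ESC. It was the only member called in 3 of the 4 successive steps, with log2 fold changes of 1.17, 1.09 and 1.34 at day 3, day 6 and ESC. The deposited TPM of Jarid2 differed more between replicates, with 21.2 and 13.2 at day 6, while its estimated reads were 3887 and 3801. Limma on log2(TPM + 1) gave 0.82 at day 3, under the minimum. Aebp2 was at 84 and 83.3 CPM in MEF, 173 and 176 at day 3, 185 and 179 at day 6, 157 and 150 at day 9, and 106 and 107 in ESC. Its log2 fold change of 1.06 (adjusted p 3.2e-12 in edgeR, SE 0.04) at day 3 lay close to the minimum, and DESeq2 gave 0.93. In TPM, Aebp2 was 6.31 times Jarid2 in MEF and 2.52 times at day 9, and in ESC Jarid2 was 1.84 times Aebp2.

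**Figure D3:**
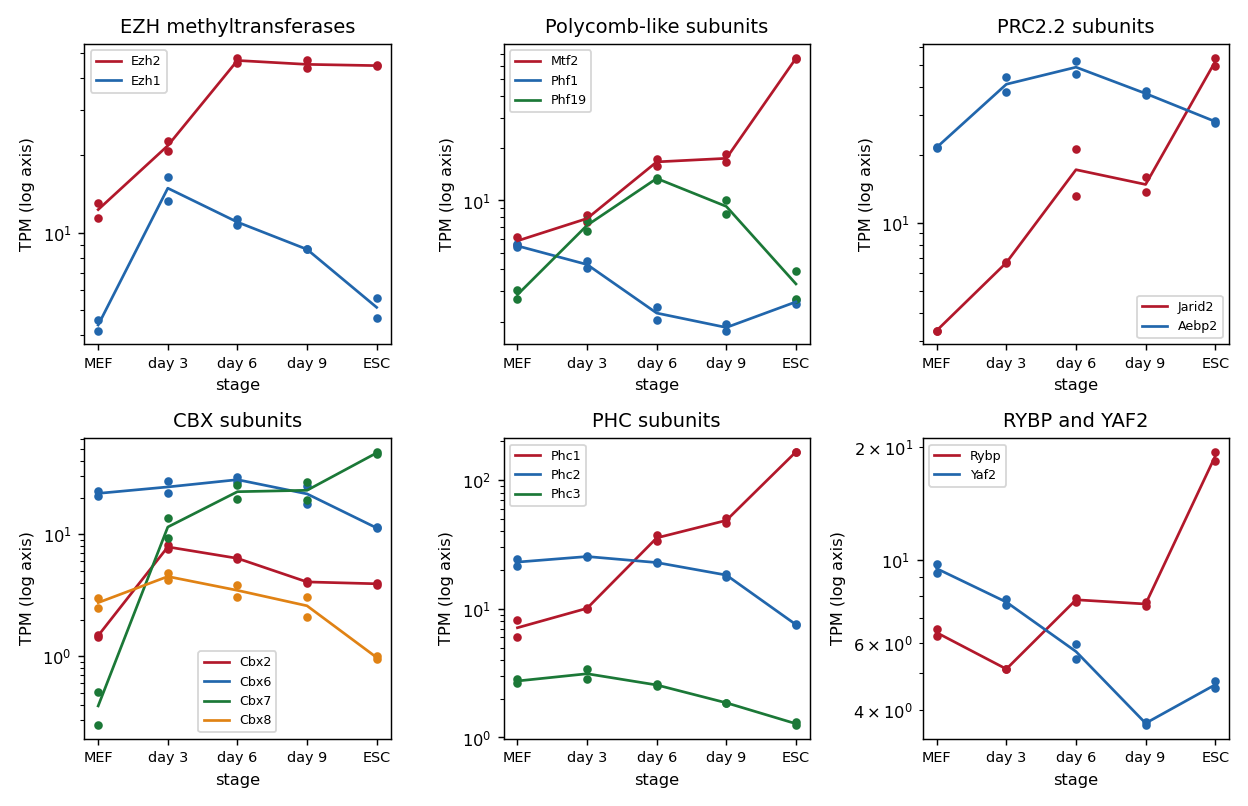
TPM (log axis) by stage for 6 groups of related subunits; points are single libraries and lines join the stage means. Phc1 crosses Phc2 between day 3 and day 6, Rybp crosses Yaf2 in the same interval, and Jarid2 crosses Aebp2 between day 9 and ESC.

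The PRC1 ligases passed the fold change minimum at no stage. Ring1 ranged from 12.4 CPM in ESC to 22.8 at day 3, and Rnf2 from 67 at day 3 to 126 in ESC, and neither was called in any comparison. Rnf2 exceeded Ring1 in TPM in each library, with a log2 ratio of 1.32 ± 0.11 (SD, n = 2) in MEF and 2.45 ± 0.3 in ESC.

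The PCGF subunits set the kind of PRC1 that forms: Bmi1 and Pcgf2 mark canonical PRC1, and the others mark variant forms. Bmi1, known as a repressor of the Ink4a cell cycle inhibitor locus, was at 47.5 and 53 CPM in MEF, 57.1 and 59.4 at day 3, 76.2 and 75.4 at day 6, 59.2 and 56.3 at day 9, and 16.3 and 16.4 in ESC. The ESC libraries were below all others, with a log2 fold change of -1.82 (adjusted p 2.5e-12 in edgeR, SE 0.06) against day 9. Its close paralog Pcgf2 ranged from 32.7 CPM in MEF to 49.2 in ESC and was not called. The TPM of Pcgf2 was 1.3 times that of Bmi1 in MEF, 1.79 times at day 9 and 5.46 times in ESC.

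Pcgf6, found in a variant PRC1 with L3mbtl2 and E2f6, was at 9.42 and 9.69 CPM in MEF, 18.1 and 20.2 at day 3, 33.1 and 34.1 at day 6, 43.3 and 41.8 at day 9, and 53.1 and 53.8 in ESC. Its log2 fold change was 2.48 (adjusted p 8.5e-14 in edgeR, SE 0.06) in ESC over MEF. At day 3 its log2 fold change rounded to 1.0 and was not called, while it was called in 8 of the 10 fits that left out 1 library, without MEF replicate 1 and without day 3 replicate 2 being the exceptions. Pcgf5 was at 14.6 and 15.9 CPM in MEF, 38 and 40.2 at day 3, 24.3 and 25.2 at day 6, 14.3 and 15.6 at day 9, and 11 and 10.4 in ESC. It rose by a log2 fold change of 1.36 (adjusted p 2.3e-10 in edgeR, SE 0.07) at day 3, and the day 9 and MEF libraries overlapped. Pcgf3 was highest in MEF at 119 and 122 CPM and ranged from 75.6 to 90.8 in the other groups, and Pcgf1 ranged from 7.18 to 10.8. Neither was called. In shares of the TPM of the 6 PCGF genes, Pcgf6 went from 3.58% in MEF to 20.1% in ESC and Bmi1 from 18% to 5.96%, while the summed TPM was 66.2 ± 2.34 (SD, n = 2) in MEF and 69.6 ± 1.02 in ESC.

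Among the CBX subunits, which bind the methyl mark through a chromodomain, Cbx7 (chromosome 15, 79915807 to 79971119) changed most. It was at 1.96 and 2.01 CPM in MEF, from 53 and 66 estimated reads, and at 50.4 and 46.4 CPM at day 3. It then stood at 91.2 and 95.9 at day 6, 98.6 and 97.7 at day 9, and 141 and 142 in ESC. The rise at day 3 had a log2 fold change of 4.61 (adjusted p 3.6e-15 in edgeR, SE 0.08), a 24.3-fold difference. The step to ESC from day 9 was 0.53, under the minimum. Cbx7 overlaps Apobec3 on the opposite strand, and how strand was treated in the quantification is not given in the sources used here. The same limit holds for other members, among them Phf1, Mtf2, Rbbp7 (with Txlng), Rnf2 (with Trmt1l) and Kdm2b (with Rnf34).

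Cbx2 was at 11.3 and 10.7 CPM in MEF, 55.3 and 55.1 at day 3, 44.1 and 45.4 at day 6, 32 and 31.2 at day 9, and 28.5 and 28.3 in ESC. It rose by 2.33 (adjusted p 5.8e-14 in edgeR, SE 0.05) at day 3 and remained above MEF by 1.37 in ESC on the log2 scale. Cbx6 was at 161 and 158 CPM in MEF, 183 and 191 at day 3, 177 and 176 at day 6, 157 and 153 at day 9, and 58.5 and 55.9 in ESC. It was called in ESC alone, at -1.44 (adjusted p 2e-13 in edgeR, SE 0.04) against day 9. Limma on log2(TPM + 1) gave -0.85, under the minimum. Cbx8 was at 5.1 and 5.88 CPM in MEF, 9.75 and 9.34 at day 3, 6.09 and 7.5 at day 6, 4.95 and 4.7 at day 9, and 1.8 and 2.11 in ESC, and fell by 1.3 (adjusted p 5.9e-06 in edgeR, SE 0.16) from day 9 to ESC on the log2 scale.

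By TPM, Cbx6 was the leading one of these 4 CBX genes in MEF with 82.4% ± 2.54 (SD, n = 2) of their sum, and Cbx7 held 1.51% ± 0.697. At day 3, Cbx6 held 50.6% ± 0.843 and Cbx7 23.5% ± 2.87. The pair stood at 41.9% ± 0.897 and 44.9% ± 0.503 at day 9, and in ESC Cbx7 held 74.2% ± 0.17 and Cbx6 18% ± 0.16. Their summed TPM was 26.3 ± 0.965 (SD, n = 2) in MEF and 62.8 ± 1.74 in ESC.

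The PHC subunits, whose SAM domains link PRC1 complexes into larger assemblies, showed an exchange of the leading gene. Phc1 (chromosome 6, 122317731 to 122340561) was at 36.1 and 38.3 CPM in MEF, 51.7 and 52.6 at day 3, 138 and 137 at day 6, 194 and 199 at day 9, and 580 and 573 in ESC. It rose by log2 fold changes of 1.4 (adjusted p 4.6e-13 in edgeR, SE 0.04) at day 6 and 1.55 (adjusted p 1.7e-14 in edgeR, SE 0.03) in ESC over day 9. Phc2 was at 116 and 107 CPM in MEF, 126 and 117 at day 3, 109 and 111 at day 6, 91.6 and 91.9 at day 9, and 34.6 and 34.3 in ESC. It fell by 1.41 (adjusted p 6e-12 in edgeR, SE 0.05) from day 9 to ESC on the log2 scale. Phc3 was at 62.4 and 58.7 CPM in MEF, 64.2 and 73.6 at day 3, 56.4 and 55 at day 6, 41.5 and 42.6 at day 9, and 25.5 and 24.4 in ESC. It was called in ESC against MEF, at -1.28 (adjusted p 1.9e-10 in edgeR, SE 0.07). Phc1 held 21.7% ± 5.12 (SD, n = 2) of the PHC TPM in MEF, 58.2% ± 1.74 at day 6, 70.7% ± 0.61 at day 9 and 94.9% ± 0.0731 in ESC. Phc2 held 70%, 37.6%, 26.6% and 4.32% at the same stages.

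The SCM-type proteins, which also join PRC1 through a SAM domain, were not called. Scmh1 ranged from 22.3 CPM in ESC to 34.2 at day 3. X-linked Scml2 ranged from 2.51 to 4.82 CPM, from 78 to 179 estimated reads per library.

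The ESC were grown on feeder cells. Bmi1, Cbx6, Cbx8, Phc2 and Phc3 were all detected in MEF at levels above those in ESC, and the ESC libraries held fibroblast markers at 8.68% of the MEF mean. The part of feeder RNA in the ESC levels of these genes was not tested.

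Rybp and Yaf2 are alternative partners of the ligases in variant PRC1. Rybp was at 57.2 and 60.7 CPM in MEF, 47.3 and 45.2 at day 3, 71.9 and 70.7 at day 6, 72.5 and 75.1 at day 9, and 167 and 162 in ESC. It rose by 1.15 (adjusted p 5.7e-12 in edgeR, SE 0.04) from day 9 to ESC on the log2 scale. Yaf2 was at 29.1 and 31.5 CPM in MEF, 25.3 and 23.2 at day 3, 17.1 and 18.9 at day 6, 12.5 and 12.1 at day 9, and 13.6 and 14.6 in ESC. Its log2 fold change was -1.31 (adjusted p 7.7e-10 in edgeR, SE 0.08) at day 9 against MEF. In TPM, Yaf2 was 1.47 times Rybp in MEF, and Rybp was 2.05 times Yaf2 at day 9 and 3.99 times in ESC.

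L3mbtl2, a chromatin reader of the Pcgf6 complex, was at 14.3 and 15.5 CPM in MEF, 27.1 and 27 at day 3, 43.9 and 42.6 at day 6, 52.6 and 52.8 at day 9, and 126 and 129 in ESC. The log2 fold change of the last step was 1.27 (adjusted p 2.5e-12 in edgeR, SE 0.04). Kdm2b, which binds unmethylated CpG islands and brings the Pcgf1 complex to them, was at 34.2 and 33.9 CPM in MEF, 46.9 and 46.1 at day 3, 58.9 and 60.6 at day 6, 51.9 and 49.8 at day 9, and 80.9 and 80.6 in ESC. It was called only in ESC against MEF, at 1.25 (adjusted p 2.2e-12 in edgeR, SE 0.04).

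Bcor, a corepressor in the same Pcgf1 complex, was at 62.1 and 61.6 CPM in MEF, 89.2 and 86.3 at day 3, 119 and 111 at day 6, 110 and 108 at day 9, and 44.4 and 39.9 in ESC. It fell by 1.37 (adjusted p 1.1e-11 in edgeR, SE 0.05) from day 9 to ESC on the log2 scale. Its paralog Bcorl1 ranged from 10.9 CPM at day 9 to 23.3 at day 3 and was not called. Bcor, Bcorl1, Rbbp7 and Scml2 are X-linked. Whether the sex-linked differences between groups given above had a part in the levels of these 4 genes was not tested.

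The PR-DUB genes were not called in any comparison. Asxl1 ranged from 82 CPM in MEF to 163 at day 3, Asxl2 from 41.4 in MEF to 79.9 in ESC, and Bap1, the catalytic subunit, from 69.4 in MEF to 116 at day 6. All 3 had a positive log2 fold change with an adjusted p under 0.05 in ESC over MEF: 0.87, 0.86 and 0.32.

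**Figure D4:**
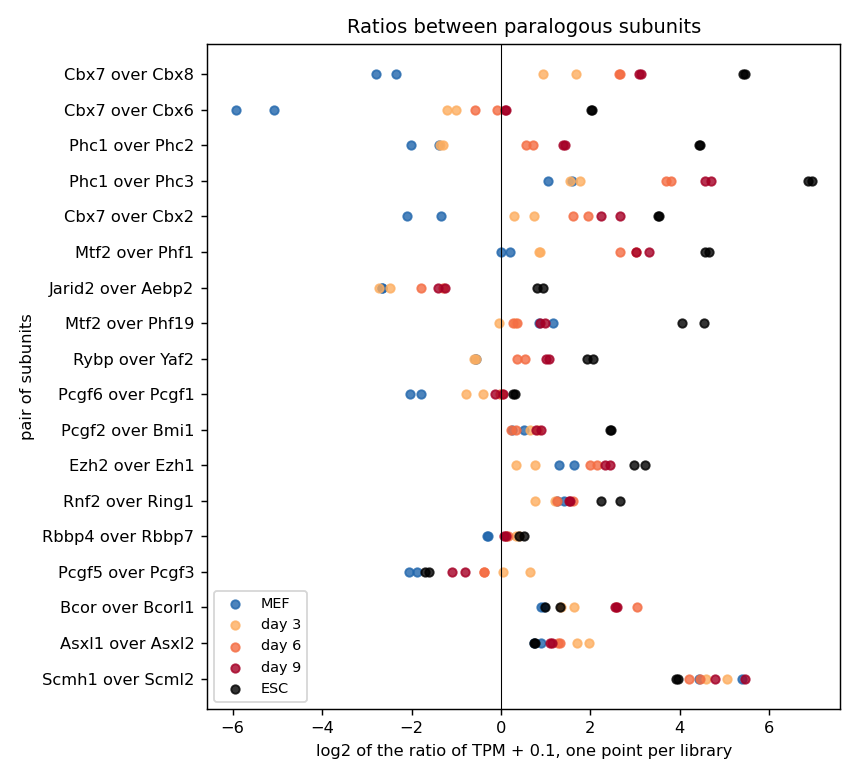
Log2 ratio of TPM (0.1 added to each) between paired subunits, 1 point per library, coloured by stage; pairs are ordered by the difference between ESC and MEF. Cbx7 over Cbx8, Cbx7 over Cbx6 and Phc1 over Phc2 differ most between ESC and MEF, by 8.0, 7.54 and 6.14 on the log2 scale.

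The pairs of related subunits differed widely in how far their ratio moved between MEF and ESC. The log2 ratio of Asxl1 to Asxl2 differed by -0.06, and its ESC and MEF libraries overlapped. For Bcor over Bcorl1 the difference was 0.22 and for Pcgf5 over Pcgf3 0.31, while both pairs differed more at the days between. The log2 ratio of Pcgf5 to Pcgf3 went from -1.97 ± 0.12 (SD, n = 2) in MEF to 0.34 ± 0.42 at day 3 and back to -1.66 ± 0.06 in ESC. The log2 ratio of Bcor to Bcorl1 was 0.93 ± 0.04 (SD, n = 2) in MEF, 2.81 ± 0.35 at day 6 and 1.16 ± 0.23 in ESC.

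Some members were above both end points during reprogramming. Called higher than in MEF and higher than in ESC were Ezh1, Phf19 and Pcgf5 at day 3 (6.36% of all genes met this), Ezh1 and Phf19 at day 6 (7.49%), and Phf19 at day 9 (8.17%). Against ESC, the log2 fold changes at day 3 were 1.69 for Ezh1, 1.42 for Phf19 and 1.87 for Pcgf5. Cbx2 had 0.96 (SE 0.05) there, just under the minimum. Below both end points there were 0 members at each day in the edgeR test, beside 6.65%, 8.74% and 8.48% of all genes at day 3, day 6 and day 9. Without the fold change minimum, 17, 11 and 9 members were above both at day 3, day 6 and day 9, and 1, 0 and 2 were below both. The share of all genes was not computed for these counts, so they do not set the members apart. The 2 tests behind each count share the libraries of that day.

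**Figure D5:**
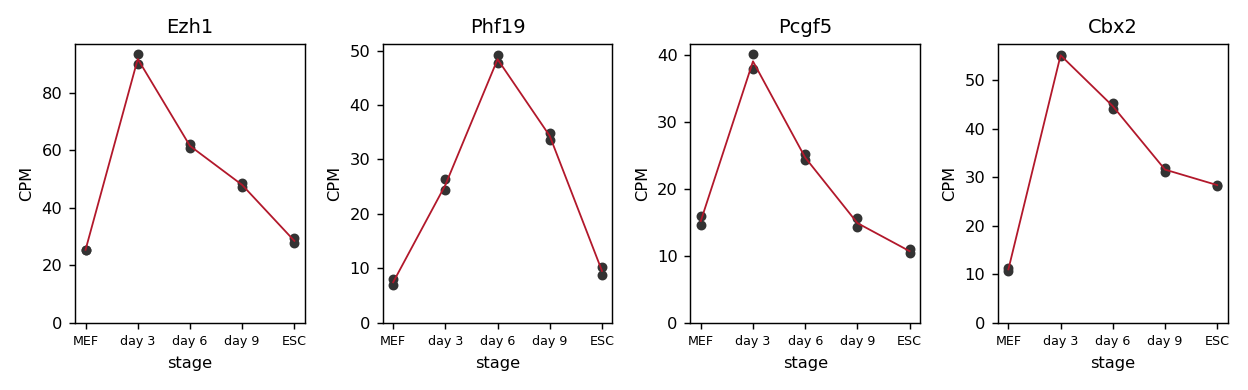
CPM of Ezh1, Phf19, Pcgf5 and Cbx2 by stage; points are the 2 libraries and lines join the means. Ezh1, Pcgf5 and Cbx2 are highest at day 3, at 90.1 and 93.7, 38 and 40.2, and 55.3 and 55.1 CPM, and Phf19 is highest at day 6, at 47.7 and 49.1 CPM.

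Transcript-level estimates were examined for shifts of at least 20 percentage points in a transcript's share of its gene's reads, with no overlap of libraries. This held for 12 transcripts of 8 members, 23.5% of the 34 members with several transcripts, beside 25.2% of all such genes with at least 20 reads in every library. For Mtf2, the coding transcript Mtf2-001 took 51.7% and 56.9% of reads in MEF, 85.8% and 88.1% at day 3, and 75.8% and 76.7% in ESC. The coding transcript Asxl2-201 held 63.9% and 64.6% in MEF, 89.9% and 90% at day 3, and 54.3% and 56.4% in ESC. The retained-intron model Cbx7-007 held 22.9% and 64.6% of the few Cbx7 reads in MEF, 35.6% and 37.5% at day 3, and 19.3% and 22.7% in ESC, so that its MEF libraries lay far apart and 1 of them was next to ESC. The assignment was unstable for some genes: Pcgf5-201 took 25.5% in 1 ESC library and 73.6% in the other. With single reads of 50 nt these shares are estimates with no interval in the files.

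Among 34 other genes linked to Polycomb complexes, Epop was not found by its symbol, and L3mbtl4 and Samd7 fell below the filter. The other 31 passed it. Of these, 1 was called higher and 1 lower at day 3 (6.45% of the 31 beside 29.1% of all tested genes), 1 and 0 at day 6 (3.23% beside 19.5%), and 0 and 0 at day 9 (beside 7.87%), where 3 were higher and 8 lower with no fold change minimum. ESC had 2 higher and 3 lower against day 9 (16.1% beside 32.9%) and 7 higher and 4 lower against MEF (35.5% beside 46.1%). At day 9 over MEF, 5 were higher and 1 lower (19.4% beside 43.9%). E2f6, the DNA-binding partner of Pcgf6 and L3mbtl2, averaged 37.4 CPM in MEF, 65.2 at day 3 and 28.1 in ESC, and was not called. Mga, the scaffold of that complex, was among the 7 called higher in ESC, while Foxk1, a partner of PR-DUB, was called lower.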

How the data were processed

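Per the labels, total RNA was prepared with TRIzol, made into stranded mRNA libraries and sequenced as single reads of 50 nt. Per the submitters' processing notes, the tools include Salmon 0.8.2 and the build mm10; the annotation release, strand setting and filters are not given in the sources used here. For each of 109617 transcripts the deposited tables give an estimated count and, per the file headers, a TPM value. Both were summed per gene, and counts were rounded. Genes were kept with filterByExpr (minimum count 10, minimum total 15). Libraries were scaled with TMM, and the quasi-likelihood test of edgeR 4.0.16 was fitted to all 10 libraries with group means, after which p-values were adjusted over all 20165 genes. CPM values are on the TMM scale. The common biological coefficient of variation was 3.75%. Standard errors were derived from the size of each fold change and its F statistic. Levels of different genes were compared only in TPM. Gene positions come from GENCODE M21 (GRCm38), in which all 37 members were found by identifier.

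The members and gene lists were chosen with earlier results of these data known. Every member was named whatever its values, and those called in a successive comparison or between ESC and MEF are given in full. Alternatives used DESeq2 1.42.0, limma 3.58.1 on log2(TPM + 1) and log2(TPM + 0.1), other filters and scalings, a replicate block and leaving out each library. In simulated counts for day 3 with MEF, over 19071 genes with 200 changed, edgeR recovered 100% with 1 unchanged gene called. Recovery of genes close to the fold change minimum was not tested separately. Recovery where 29.1% of genes are called, as in the measured day 3 libraries against MEF, was not tested. Replicates differed by more than sampling noise (chi-square per degree of freedom 2.91 to 5.42), and each library counted as 1 sample; the labels do not say whether they came from separate animals, so p-values measure the spread between these libraries, which may be technical. All libraries carry 1 batch label. Promoter matches carry no test.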

Additional observations from a re-analysis of the deposited data

How the results depend on the processing

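The replicate block left the 12 higher and 7 lower members in ESC against MEF, the 7 higher at day 3, and each other call as they were; deviations of libraries with the same number correlated by 9.91e-05 on average (-0.0205 to 0.0222), and the titles do not say what a number shares. Without the fold change minimum, higher and lower members numbered 30 and 4 at day 3, 19 and 13 at day 6, and 8 and 16 at day 9. They numbered 14 and 15 in ESC over day 9, 22 and 13 in ESC over MEF, and 24 and 6 at day 9 over MEF. Above both end points were 17, 11 and 9 at day 3, day 6 and day 9, and below both 1 at day 3 and 2 at day 9. No share of all genes was computed for these end point counts. Library-size scaling gave 12 higher at day 3, 6 higher at day 6, 4 lower in ESC over MEF and 2 above both end points at day 9; the all-gene median moved from 0.08 to 0.285 at day 3 and from 0.099 to 0.438 in ESC over MEF. With limma on log2(TPM + 1), ESC over day 9 had 8 higher and 3 lower, ESC over MEF had 2 lower and day 6 had 1 above both, and with log2(TPM + 0.1) 8 were higher in ESC over day 9. Leaving out each replicate gave 0 to 1 members lower at day 6, the 1 being Phf1 without day 6 replicate 2.

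Of 222 fold changes of members (210 with the filter of 10 CPM), 16 turned sign under each limma setting, 8 under library-size scaling and 0 to 3 under each other setting; the largest of these by its edgeR value that passed the test was Ring1 in ESC over day 9 (-0.47), and no called change turned. Those that had passed the test follow. Under limma on log2(TPM + 1) and log2(TPM + 0.1) in turn, Jarid2 had -0.17 and -0.18 at day 9 over day 6, Ring1 0.06 and 0.06 in ESC over day 9, Bmi1 -0.02 and -0.03 at day 9 over MEF, Pcgf3 0.04 and 0.05 and Cbx6 0.19 and 0.2 at day 6 over day 3, and Bcorl1 -0.02 and -0.03 at day 3. Phc2 at day 9 over MEF was 0.01 under library-size scaling. The ESC minus MEF difference of Asxl1 over Asxl2 was 0.01 on counts and ran from -0.13 without MEF replicate 2 to 0.02 without MEF replicate 1. The cause was not tested.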
